A study of Mus musculus with 4 samples.

Results

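The genes described here are 35 genes of the mouse heart muscle cell that build the sarcomere, move calcium, supply energy to contraction or mark a strained cardiomyocyte. They were taken by gene symbol from a list that was chosen with earlier results of these data known. All 35 were among the 32285 genes of each deposited matrix. They were followed in droplet single-cell RNA libraries of all cells from mouse heart, with 1 library for each of 4 groups. There was a control and a sham. The third group had cecal ligation and puncture (CLP), an operation that leaks gut bacteria into the abdomen and so models sepsis. The fourth, CLP_LLTS, had sepsis together with low-level tragus stimulation, which stimulates a vagus nerve branch at the ear. The series title concerns stimulation and the dysfunction of the septic heart. The stimulated library is placed after CLP by its title, since its treatment label names stimulation alone. The labels read here name no strain, sex, age, sampling time or number of mice. A single library stands for each group, so nothing below was tested and no difference can be set against the spread of replicates. Values in parentheses after a ratio are its 95% interval from counting error alone.

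In a cardiomyocyte, myosin of the thick filament pulls on actin of the thin filament, and troponin and tropomyosin on the thin filament let it do so only when calcium is bound. Calcium enters through the channel made from Cacna1c, triggers release from the sarcoplasmic reticulum through the ryanodine receptor Ryr2, and is pumped back by SERCA2, the product of Atp2a2, which phospholamban (Pln) holds in check. Loss of contractile force in sepsis is commonly studied through these parts. Atria and ventricles use different light chains: Myl4 and Myl7 are the atrial forms, and Myl2 and Myl3 the ventricular ones.

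Cardiomyocytes are large and few of them pass through droplets, so they were picked by 16 other muscle genes such as Cox6a2, Smpx and Trim72, none of which is among the 35. This gave 216, 158, 173 and 41 barcodes in control, sham, CLP and CLP_LLTS, which was 1.36% (1.18 to 1.55), 1.67% (1.42 to 1.95), 1.99% (1.71 to 2.31) and 0.466% (0.335 to 0.632) of kept barcodes. They were shallow, with a median of 1051, 909, 980 and 1129 UMIs (unique molecules), and held 292795, 174085, 188290 and 53573 nuclear UMIs (those of genes outside the mitochondrial genome) in all. The 35 genes made up 17.0%, 14.3%, 14.1% and 15.0% of those UMIs. Against all other kept barcodes the median gene of the list was higher by 5.79 to 7.94 on the log2 scale, depending on the library, and the lowest were Cacna1c and Slc8a1. The gated barcodes also held markers of other cell types: endothelial markers came to 1486, 1637, 2045 and 429 CPM (UMI counts scaled to the same total in each library) and macrophage markers to 550, 890, 536 and 392 CPM, against 23115 to 36256 and 9608 to 19657 CPM in their own classes. No gated barcode was shared between libraries. Levels below are CPM of nuclear UMIs. Reads come from the 3' end, so a level counts molecules and does not grow with gene length.

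Single barcodes weighed on some values. In sham, 1 barcode of 24072 UMIs held 11.9% of the nuclear UMIs, including 243 of the 529 Myh6 counts, 124 of the 293 Atp2a2 counts, 222 of the 417 Myl4 counts, 207 of the 540 Tcap counts and 36 of the 119 Ankrd1 counts. It carried 355 Myl2 and 222 Myl4 UMIs but no Myl7 UMI. Barcodes with more Myl4 and Myl7 than Myl2 UMIs, called atrial here, numbered 18, 10, 3 and 1 in the 4 libraries. They held 27.5%, 6.48%, 1.65% and 3.34% of the nuclear UMIs, so the control library was the most atrial.

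Tropomyosin, ventricular light chains, troponins and myoglobin were the most abundant. Tpm1, the tropomyosin that covers the myosin sites on actin, stood at 28019.6, 23305, 26783 and 33375 CPM in control, sham, CLP and CLP_LLTS. Myl2 stood at 18679, 23098, 27766 and 18536 CPM, lowest in control and CLP_LLTS. Outside atrial barcodes, in those called ventricular, it stood at 25712, 24679, 28221 and 19175 CPM, with control above sham. The troponin I gene Tnni3, the inhibitory subunit, was nearly flat at 16281, 13890, 13139 and 14261 CPM. Troponin T (Tnnt2), which ties troponin to tropomyosin, stood at 15215, 11862, 10309 and 16781 CPM, and the essential light chain Myl3 at 12261, 12006, 12162 and 13552 CPM. Myh6, the fast myosin heavy chain of the adult mouse heart, lay well below its light chains at 4894, 3039, 2401 and 2520 CPM. Among ventricular barcodes Myh6 stood at 1785, 2936, 2392 and 2588 CPM, lowest in control. Its slow fetal counterpart Myh7 had 7, 2, 1 and 1 counts, so a switch from Myh6 to Myh7 was not detectable at this depth. At the low end were the membrane and release proteins of calcium cycling, with Ryr2 at 236, 109, 106 and 168 CPM and Cacna1c with 9, 6, 2 and 0 counts. In CLP_LLTS 3 counts, the limit taken for a count of 0, come to 56.0 CPM, and the exact upper bound for 0 is 68.9 CPM.

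**Figure D1:**
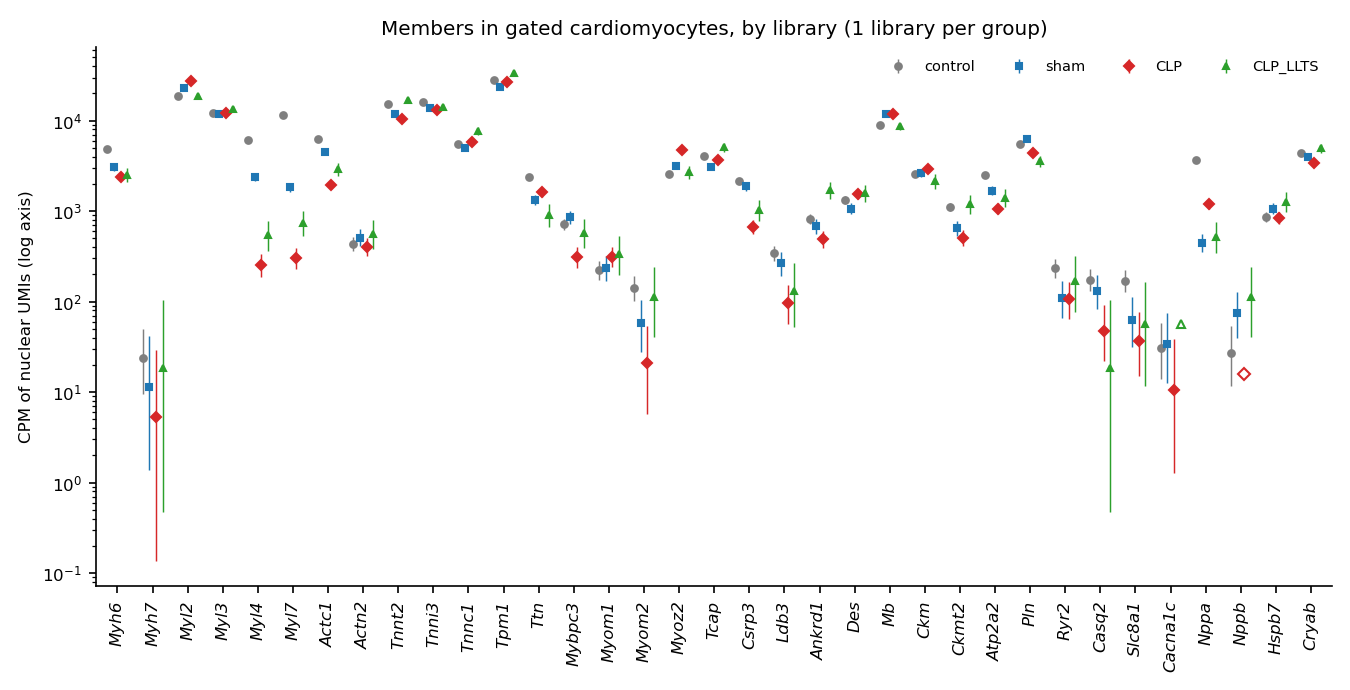
CPM of nuclear UMIs (log axis) of each of the 35 genes in gated cardiomyocytes, 1 point per library with its counting interval. Open symbols mark 0 counts and sit at the level 3 counts would give. Tpm1 and Myl2 top the list, and Myl4 and Myl7 spread most between libraries among genes with counts in all 4.

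CLP against sham asks what sepsis does. Of the 35 genes, 30 had at least 20 counts over both libraries, 11 of them higher and 19 lower in CLP. Their median log2 ratio was -0.20, beside -0.11 over all 1910 genes with that many counts. Past 2-fold were 7 lower genes, where 8.85% of all genes were, and 1 higher gene, where 5.76% were. The lower ones were Myl4, Myl7, Actc1, Mybpc3, Csrp3, Ldb3 and Casq2, and the higher one Nppa. Of these 8, all but Ldb3 and Casq2 stayed past 2-fold under each of the 14 other settings tried.

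The clearest lower gene of the thin filament was Actc1, the cardiac actin. It had 6312, 4515, 1949 and 2912 CPM in control, sham, CLP and CLP_LLTS, so CLP was the lowest library and CLP_LLTS lay between CLP and sham. The log2 ratio of CLP over sham was -1.21 (-1.39 to -1.03), and it was -1.18 in ventricular barcodes and -1.21 without the deep sham barcode. The other thin filament genes were not lower to that degree. Log2 ratios were -0.20 (-0.29 to -0.11) for Tnnt2, -0.08 for Tnni3, 0.21 for the calcium-binding subunit Tnnc1 and 0.20 for Tpm1. Tnnt2 was at 0.06 when each cell had equal weight and at 0.02 without the deep sham barcode. Within the thin filament, the Actc1 interval did not overlap those of these 4 genes.

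In the thick filament, Mybpc3, the myosin-binding protein that sets how readily heads are recruited and a common gene of inherited cardiomyopathy, was lower. It stood at 714, 862, 308 and 579 CPM from 209, 150, 58 and 31 counts, with CLP lowest. Its log2 ratio was -1.48 (-1.95 to -1.04), and -1.53 in ventricular barcodes. Myl2 was higher in CLP at 0.27 (0.21 to 0.33), and Myl3 differed by 0.02 (-0.07 to 0.10). Titin (Ttn), the spring that spans the sarcomere from Z disc to M line, gave 0.26 (0.01 to 0.52), but -0.42 among barcodes with at most 20% mitochondrial UMIs. In CLP 1 barcode held 131 of its 304 counts. Myh6 gave -0.34 (-0.52 to -0.16), yet 0.36 without the deep sham barcode, where a CLP barcode with 99 of 452 Myh6 counts was kept. With equal weight per cell Myh6 gave 0.29, so no direction is given for it. Among M line genes, Myom1 was at 0.41 (-0.19 to 1.02) and Myom2 had 10 counts in sham and 4 in CLP.

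At the Z disc, where thin filaments are anchored, genes went both ways. Csrp3 encodes muscle LIM protein, a mechanical sensor of the Z disc, and had 2159, 1884, 664 and 1027 CPM. Its log2 ratio of CLP over sham was -1.50 (-1.81 to -1.20), and -1.43 in ventricular barcodes. Ldb3 (cypher), which binds alpha-actinin, had 342, 264, 95.6 and 131 CPM from 100, 46, 18 and 7 counts, with a ratio of -1.44 (-2.34 to -0.65) that came to -0.93 with mixed barcodes kept. Alpha-actinin itself, Actn2, gave -0.34 (-0.80 to 0.12). Myoz2, which ties calcineurin to the Z disc and restrains it, was higher, at 2565, 3171, 4695 and 2688 CPM and a ratio of 0.57 (0.41 to 0.72). The intermediate filament gene Des, at 1325, 1068, 1535 and 1568 CPM, was higher by 0.52 (0.25 to 0.80), while the titin cap Tcap was at 0.24 (0.08 to 0.41). Tcap was at 0.75 without the deep sham barcode and at -0.01 with at most 20% mitochondrial UMIs, so no direction is given for it. So Csrp3 and Ldb3 were lower in the library where Myoz2 and Des were higher.

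The promoters of the 4 sarcomere genes that were past 2-fold lower in CLP, apart from the atrial light chains, are shown so that their known muscle elements can be seen beside these values. Each run is the sequence before the RefSeq start on GRCm38.p6 (for Actc1, 673 bases from the start GENCODE gives), 5′ to 3′ on the strand of the gene, without bases that GENCODE places in an exon. They lie at chr2:114052888-114053125 for Actc1 (minus strand), chr7:48848052-48848301 for Csrp3 (minus), chr2:91117894-91118143 for Mybpc3 (plus) and chr14:34588683-34588931 for Ldb3 (minus). Capitals mark matches, on either strand, to the CArG box bound by serum response factor, the MEF2 site, the GATA motif GATAAG, or either of 2 TATA-type runs, which are TATATA or else TATAAA. The core of the MCAT element, which reads CATTCC, was searched too.
Actc1: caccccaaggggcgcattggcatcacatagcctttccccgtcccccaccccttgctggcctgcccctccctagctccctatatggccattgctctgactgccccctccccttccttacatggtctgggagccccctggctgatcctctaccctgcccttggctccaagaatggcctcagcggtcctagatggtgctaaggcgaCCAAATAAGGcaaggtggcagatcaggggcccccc
Csrp3: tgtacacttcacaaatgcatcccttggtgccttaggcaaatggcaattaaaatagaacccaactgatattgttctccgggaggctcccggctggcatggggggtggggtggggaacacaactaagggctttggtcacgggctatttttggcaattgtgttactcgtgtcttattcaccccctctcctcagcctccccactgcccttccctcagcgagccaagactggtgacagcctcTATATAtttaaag
Mybpc3: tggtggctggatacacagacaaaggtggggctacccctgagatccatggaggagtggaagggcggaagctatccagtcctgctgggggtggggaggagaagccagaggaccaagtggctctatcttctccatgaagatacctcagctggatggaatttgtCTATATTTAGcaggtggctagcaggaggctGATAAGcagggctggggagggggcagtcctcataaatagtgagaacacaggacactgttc
Ldb3: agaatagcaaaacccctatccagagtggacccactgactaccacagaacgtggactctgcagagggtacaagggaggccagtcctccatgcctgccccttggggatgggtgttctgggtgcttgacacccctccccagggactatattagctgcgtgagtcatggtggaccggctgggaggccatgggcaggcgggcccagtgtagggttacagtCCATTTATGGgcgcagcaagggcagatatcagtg
Actc1 and Ldb3 each held a CArG box, at 47 to 38 and 35 to 26 bases before the start. Mybpc3 held a MEF2 site and a GATAAG, and Csrp3 held TATATA at 13 to 8 bases before its start. No motif was common to all 4.

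RefSeq promoters were at hand for 31 of the 35 genes. In the 250 bases before the start a CArG box was in 5 of the 31 (Myl3, Myl7, Actc1, Myom1 and Ldb3), against 1.47% of all 32851 mouse promoters of the same length. A MEF2 site was in 4 (Ttn, Mybpc3, Myoz2 and Casq2), against 2.92%. CATTCC was in 9 against 12.6%, GATAAG in 6 against 6.55%, TATATA in 7 against 5.25% and TATAAA in 4 against 12.4%. TATA-type runs can overlap a MEF2 site. These are letter matches in a window, and they say nothing of binding. Of the 5 genes with a CArG box, Actc1 and Ldb3 were past 2-fold lower in CLP than in sham. In that comparison 7 of the 30 measured genes of the list were past 2-fold lower, and 8.85% of all genes. Myl3 was at 0.02 (-0.07 to 0.10) and Myom1 at 0.41 (-0.19 to 1.02). Myl7 was at -2.60, but it is used to split the chambers and is given with no reading. A link between the motif and the ratios was not tested.

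Of the calcium handling genes, Pln, Atp2a2 and Casq2 were lower in CLP, but the Atp2a2 ratio depended on single barcodes. Pln had 5478, 6267, 4419 and 3565 CPM and a log2 ratio of CLP over sham of -0.50 (-0.64 to -0.37), the same sign in all settings. Atp2a2 had 2514, 1683, 1062 and 1400 CPM and a ratio of -0.66 (-0.93 to -0.40). In CLP 1 barcode held 68 of the 200 Atp2a2 counts. Without the deep sham barcode, but with that CLP barcode kept, the Atp2a2 ratio was -0.05. With at most 20% mitochondrial UMIs it was -1.58. Calsequestrin (Casq2), the calcium buffer of the sarcoplasmic reticulum, had 51, 23, 9 and 1 counts and a ratio of -1.42 (-2.76 to -0.30). It was -0.80 without the deep sham barcode. Ryr2 gave -0.04 (-1.02 to 0.95), too wide an interval for a direction. The sodium-calcium exchanger gene Slc8a1 had 11 and 7 counts in sham and CLP and Cacna1c 6 and 2, too few for a ratio.

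**Figure D2:**
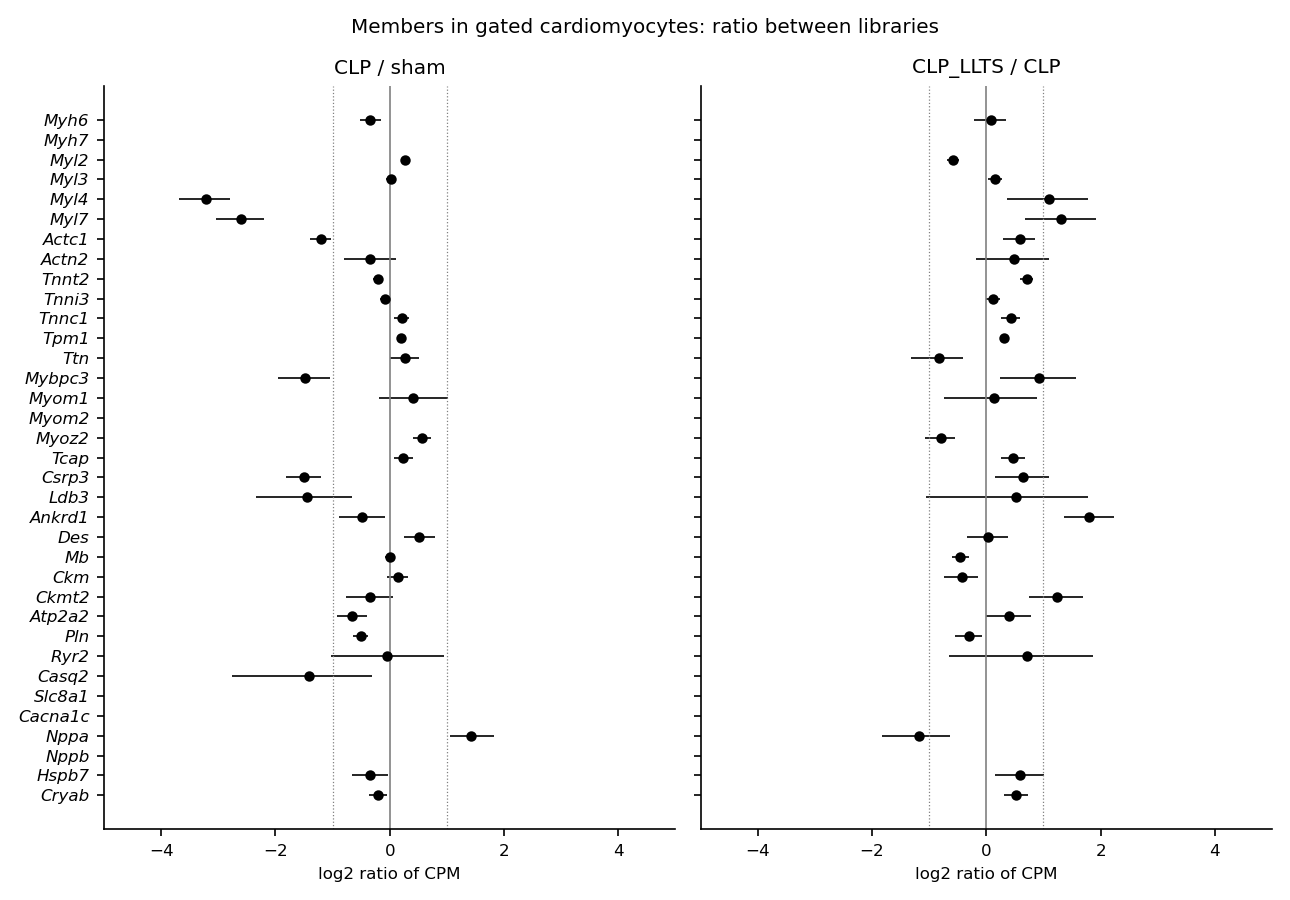
Log2 ratio of CPM in gated cardiomyocytes for CLP over sham (left) and CLP_LLTS over CLP (right), with counting intervals; dotted lines mark a ratio of 2 either way, and genes under 20 counts are left blank. The 2 panels share the CLP library, so a low CLP value by itself puts a gene to the left in one and to the right in the other. Actc1, Csrp3 and Mybpc3 sit beyond the left dotted line in CLP over sham.

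The remaining genes serve energy and protein quality. Myoglobin (Mb), the oxygen store, stood at 8958, 11868, 11865 and 8661 CPM, without a difference between CLP and sham beyond counting error (0.00, -0.09 to 0.09). Muscle creatine kinase (Ckm) gave 0.14 (-0.04 to 0.32) and its mitochondrial partner Ckmt2 -0.35 (-0.76 to 0.06). The small heat shock proteins that guard desmin and filamin were slightly lower, Cryab at -0.20 (-0.36 to -0.04) and Hspb7 at -0.34 (-0.65 to -0.03). Ankrd1, a titin-bound stress sensor that also acts in the nucleus, gave -0.48 (-0.89 to -0.08), but 0.32 with mixed barcodes kept and -0.15 without the deep sham barcode.

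Natriuretic peptides are hormones that the stretched heart releases. Nppa had 3692, 448, 1206 and 523 CPM, high in control and CLP. In control, 1069 of its 1081 counts lay in atrial barcodes, and 1 barcode held 817 of them. In CLP, 187 of 227 counts lay in the 3 atrial barcodes. The ratio of CLP over sham was 1.42 (1.05 to 1.82). Among ventricular barcodes alone Nppa stood at 56.5, 92.1, 216 and 0 CPM, from 12, 15, 40 and 0 counts, and the ratio was 1.20. A single ventricular barcode of CLP, with 4430 UMIs, held 30 of the 40 counts, so no direction is given for ventricular Nppa. The 3 deepest atrial barcodes of control held no Nppa. Nppb, the ventricular stress peptide, had 8, 13, 0 and 6 counts, of which 3, 13, 0 and 4 lay in ventricular barcodes. Both comparisons with CLP were under 20 counts. Taking 3 counts as the limit for 0, Nppb was at least 4.69-fold lower in CLP than in sham and at least 7.03-fold lower than in CLP_LLTS. The counting intervals of the log2 ratios reached as near as -1.72 for CLP over sham and 2.05 for CLP_LLTS over CLP.

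The atrial light chains moved with the same barcodes. Myl7 had 11554, 1844, 303 and 747 CPM and Myl4 6110, 2395, 255 and 541 CPM, highest in control and lowest in CLP, as was the share of atrial UMIs. Both were used to split the chambers, so their levels are given with no reading. The CLP over sham ratio of Myl4 was -3.22, and -2.31 without the deep sham barcode. Other genes can be compared between chambers. Control had the most atrial barcodes, 18, but they were deeper than the ventricular ones (median 4761 UMIs against 1014.5). Chamber and depth cannot be told apart there. In control Nppa was higher in atrial barcodes by 7.82 (7.06 to 8.83) on the log2 scale. Ttn was higher by 3.78 (3.50 to 4.09), Atp2a2 by 2.94 (2.70 to 3.19) and Myh6 by 2.87 (2.70 to 3.05). Slc8a1 was higher by 3.93 (2.85 to 5.42), Casq2 by 3.56 (2.56 to 4.85) and Ryr2 by 3.46 (2.62 to 4.50). Slc8a1, Casq2 and Ryr2 had only 7, 9 and 13 counts in ventricular barcodes. Lower in atrial barcodes were Myl3, at -4.62 (-5.05 to -4.25), Ckmt2 at -2.29, Ckm at -2.14, Pln at -1.84 (-2.10 to -1.61), Mb at -1.69 and Myoz2 at -1.56. Atp2a2 and its inhibitor Pln thus lay on opposite sides. Without the 2 control barcodes over 10000 UMIs, both atrial, these values were 2.91 for Myh6, 2.76 for Atp2a2, 4.06 for Ttn and -1.52 for Pln. In sham the 10 atrial barcodes were nearer in depth to the ventricular ones (median 1195 UMIs against 899). The gaps in sham were 0.69 (0.06 to 1.22) for Atp2a2 and 0.64 (0.18 to 1.04) for Myh6. Ttn was at 0.54 (-0.21 to 1.16) and Pln at -0.67 (-1.15 to -0.26). Without the deep barcode, which lies on the ventricular side, Atp2a2 was at 1.40 (0.75 to 1.97) and Myh6 at 1.46 (0.98 to 1.89). Ttn was then at 0.78 (0.02 to 1.41) and Pln at -0.74 (-1.22 to -0.32). With all sham barcodes Casq2 was at 0.75 (-2.68 to 2.49) and Ryr2 at 1.04 (-2.39 to 2.84), intervals that include 0. Slc8a1 had 0 atrial and 11 ventricular counts in sham.

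**Figure D3:**
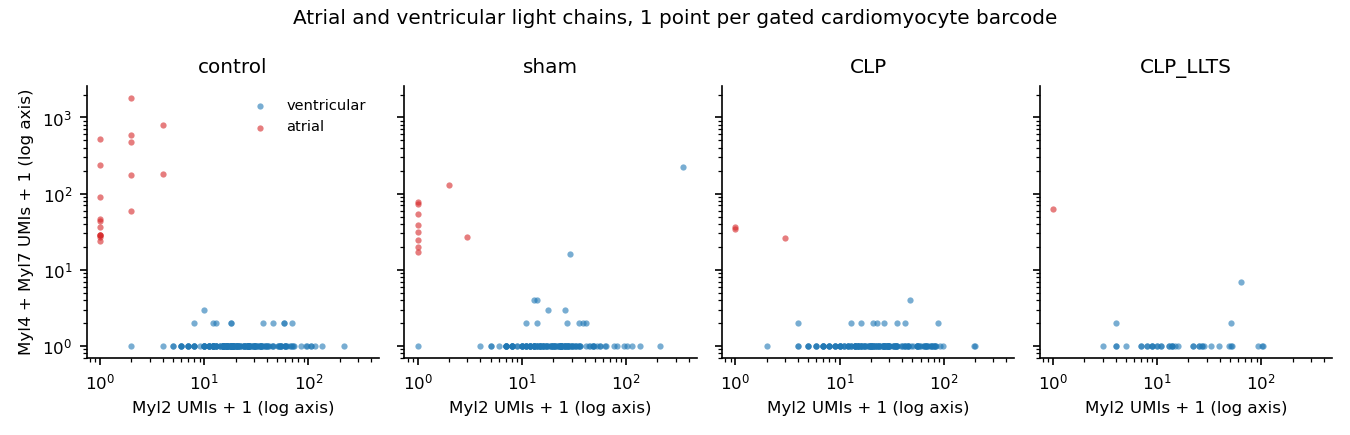
UMIs of Myl2 and of Myl4 plus Myl7 (each plus 1, log axes) in every gated cardiomyocyte barcode, by library. Red points, with more atrial than ventricular light chain, number 18, 10, 3 and 1; the blue point at the upper right of sham is the barcode of 24072 UMIs.

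CLP_LLTS against CLP asks what stimulation adds in septic hearts, and rests on 41 barcodes on the stimulated side. Of 29 genes with at least 20 counts, 22 were higher and 7 lower in CLP_LLTS, with a median log2 ratio of 0.43 beside 0.14 over all 1317 genes. Scaling by median-of-ratios size factors put these medians at 0.27 and -0.02. Past 2-fold, 4 genes were higher (Myl4, Myl7, Ankrd1 and Ckmt2), where 9.57% of all genes were, and 1 was lower (Nppa), where 6.23% were. CLP is in both this comparison and the last, so the values are set side by side and no agreement between them is counted.

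Ankrd1 had the largest ratio of these, with 823, 684, 489 and 1699 CPM from 241, 119, 92 and 91 counts, so that CLP_LLTS was above all other libraries. The ratio was 1.80 (1.36 to 2.23). The single atrial barcode of CLP_LLTS held 29 of the 91 counts, and among ventricular barcodes the level was 1197 CPM in CLP_LLTS against 497 in CLP, a ratio of 1.27. Ankrd1 was also higher in CLP_LLTS than in sham, at 1.32 (0.90 to 1.72), but at 0.80 among ventricular barcodes and 0.30 with the looser cardiomyocyte gate of 0.15%. Ckmt2, which passes mitochondrial ATP on to creatine, had 1110, 649, 510 and 1195 CPM, near control in CLP_LLTS and low in CLP. Its ratio was 1.23 (0.75 to 1.70), and 1.26 among ventricular barcodes. Ckmt2 and Ankrd1 were the only 2 genes past 2-fold here under every other setting in which they were measured.

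Actc1, Csrp3 and Mybpc3, which were past 2-fold lower in CLP than in sham, were higher in CLP_LLTS than in CLP by less than 2-fold. Log2 ratios of CLP_LLTS over CLP were 0.58 (0.30 to 0.85) for Actc1, 0.64 (0.14 to 1.10) for Csrp3 and 0.92 (0.23 to 1.56) for Mybpc3. Casq2 had 9 counts in CLP and 1 in CLP_LLTS, too few for a ratio. With 7 counts in CLP_LLTS, Ldb3 gave 0.51 (-1.05 to 1.78), a difference not detectable at this depth. Tnnt2 was higher by 0.70 (0.59 to 0.82), Tcap by 0.47 (0.26 to 0.67), Tnnc1 by 0.43 (0.26 to 0.59), Cryab by 0.52 (0.30 to 0.72) and Hspb7 by 0.59 (0.16 to 1.01). Lower were Ttn at -0.84 (-1.32 to -0.41), Myoz2 at -0.80 (-1.07 to -0.55), Myl2 at -0.58 (-0.68 to -0.48), Mb at -0.45 (-0.60 to -0.31), Ckm at -0.43 (-0.73 to -0.14) and Pln at -0.31 (-0.54 to -0.08). Ttn was at 0.31 with at most 20% mitochondrial UMIs. Atp2a2 was at 0.40 (0.00 to 0.79) and Myh6 at 0.07 (-0.22 to 0.35). Within the calcium pump pair, then, Pln was lower in CLP_LLTS than in CLP and sham, where the Atp2a2 interval against CLP reached 0.

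Nppa was lower in CLP_LLTS at -1.18 (-1.83 to -0.64), and all of its 28 counts came from the single atrial barcode. Myl4 and Myl7, at 1.10 (0.37 to 1.78) and 1.31 (0.68 to 1.91), also rested on it, with 23 of 29 and 38 of 40 counts. Under the stricter gate of 0.6%, which drops that barcode and 8 barcodes of CLP, they were at -1.12 and -2.72. The chamber makeup of 41 barcodes cannot be told apart from a change in these genes.

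Cardiomyocyte RNA also turned up outside cardiomyocytes. The 8 reference genes taken from the list (Myh6, Myl2, Myl3, Actc1, Tnni3, Tnnc1, Mb and Tnnt2) summed to 544, 431, 302 and 117 CPM in macrophage barcodes and to 2053, 1955, 1523 and 775 CPM in endothelial barcodes. In cardiomyocytes they summed to 84968 to 88185 CPM. The level was lowest in CLP_LLTS, the library with the fewest cardiomyocytes. Such RNA may be free in the suspension or stuck to a cell, which cannot be told apart here. Taken relative to the reference genes, it gives a second reading of each ratio in barcodes the gate did not use, in the same libraries.

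In that reading the lower actin and Z disc genes of CLP were lower again. Actc1 relative to the other reference genes was at -1.26 (-1.44 to -1.08) in cardiomyocytes, -0.50 (-0.63 to -0.37) in endothelial and -1.02 (-1.31 to -0.75) in macrophage barcodes. Csrp3 was at -1.50, -0.89 (-1.12 to -0.66) and -0.92 (-1.41 to -0.48). Ldb3 was at -1.44, -0.87 (-1.43 to -0.34) and -1.19 (-2.56 to -0.15), and Pln at -0.51, -0.57 (-0.69 to -0.46) and -0.36 (-0.58 to -0.14). Myoz2 was higher in all 3, at 0.56, 0.27 (0.14 to 0.39) and 0.32 (0.08 to 0.56). Mybpc3 did not follow: it was at -1.48 (-1.95 to -1.04) in cardiomyocytes but 0.42 (0.13 to 0.72) in endothelial and 0.26 (-0.24 to 0.74) in macrophage barcodes. Myh6 was at -0.35, 1.42 (1.28 to 1.57) and 0.81 (0.56 to 1.06), and Ttn at 0.26, 0.92 (0.77 to 1.07) and 0.69 (0.39 to 0.98). The sign thus depended on which barcodes were read for Mybpc3 and Myh6. It did so for Nppa too, at 1.42 (1.05 to 1.82) in cardiomyocytes, -0.55 (-1.08 to -0.04) in endothelial and -0.40 (-0.92 to 0.08) in macrophage barcodes. Actn2 was at -0.34 (-0.80 to 0.12), 1.02 (0.70 to 1.36) and 1.05 (0.45 to 1.64). Atp2a2, which macrophages also hold beyond free RNA, was at -0.66 in cardiomyocytes and 0.34 (0.23 to 0.44) in endothelial barcodes. Whether endothelial cells add Atp2a2 RNA of their own to that value was not tested. Of the other measured genes, Ankrd1, Casq2, Hspb7, Ryr2 and Tnnt2 also had the opposite sign in both other classes. Each had an interval that included 0 in at least 1 of the 3 readings. Endothelial barcodes met the rule below for Casq2 above free RNA by the cardiomyocyte ratio, but not with the macrophage profile as reference. Its endothelial value may thus not be a reading of free RNA alone.

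**Figure D4:**
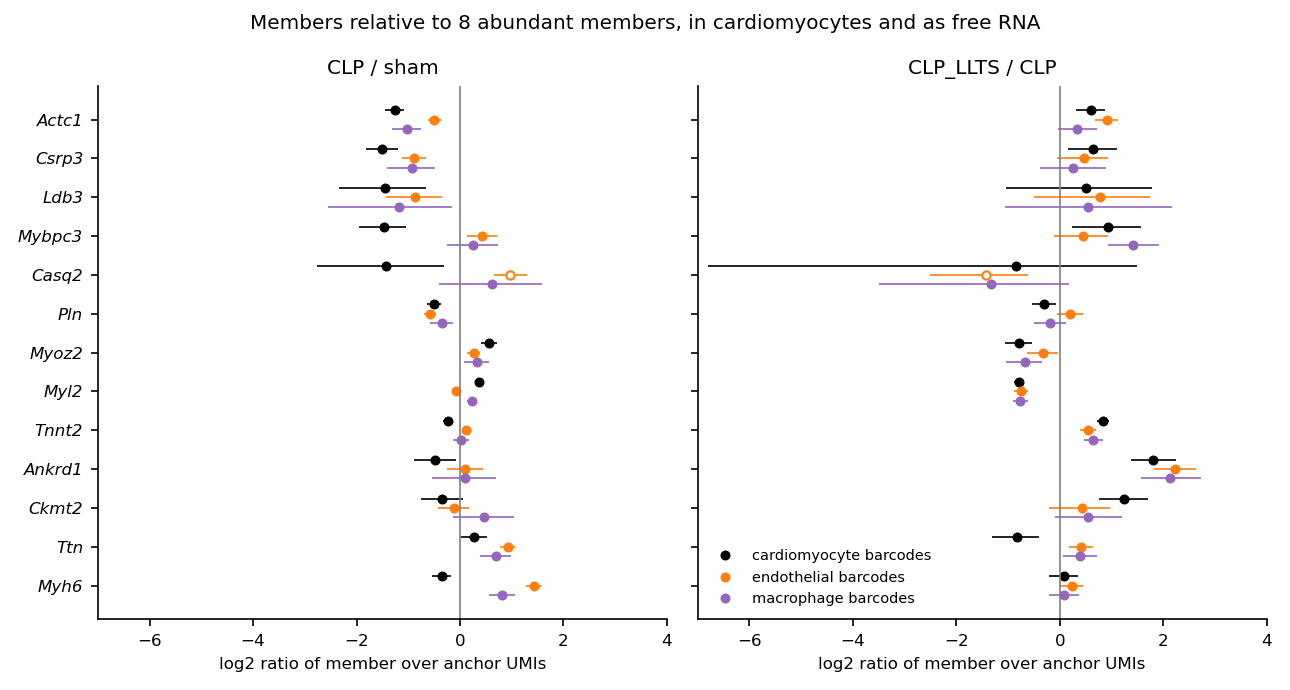
Log2 ratio between libraries of each gene's UMIs over the summed UMIs of the reference genes (anchors), with counting intervals. Barcodes are cardiomyocyte (black), endothelial (orange) and macrophage (purple). An open circle marks a gene that the class holds beyond free RNA by the cardiomyocyte ratio. Actc1, Csrp3 and Ldb3 lie left of 0 in all 3 for CLP over sham, and Ankrd1 lies right of 1 in all 3 for CLP_LLTS over CLP.

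For CLP_LLTS over CLP, Ankrd1 was at 1.80 (1.37 to 2.24) in cardiomyocytes, 2.23 (1.81 to 2.63) in endothelial and 2.12 (1.57 to 2.73) in macrophage barcodes, with 79 and 105 counts in the latter in CLP_LLTS. Tnnt2 was at 0.84, 0.55 (0.39 to 0.70) and 0.65 (0.46 to 0.83), and Myl2 at -0.79, -0.74 (-0.88 to -0.61) and -0.76 (-0.91 to -0.62). Actc1 was at 0.61, 0.91 (0.68 to 1.13) and 0.34 (-0.04 to 0.71). Ttn had opposite signs, at -0.83 (-1.31 to -0.40), 0.42 (0.18 to 0.65) and 0.39 (0.07 to 0.72). Pln was at -0.30 (-0.54 to -0.07), 0.20 (-0.06 to 0.44) and -0.18 (-0.50 to 0.13). Mb was at -0.51 (-0.66 to -0.36), -0.06 (-0.22 to 0.11) and -0.07 (-0.26 to 0.12). Myl3 was at 0.19 (0.07 to 0.31), -0.17 (-0.33 to -0.01) and -0.17 (-0.36 to 0.02). Csrp3 was at 0.64, 0.47 (-0.06 to 0.93) and 0.26 (-0.38 to 0.89). For Tcap, Tnnc1, Tpm1, Myoz2 and Ckm the sign was the same in each class and each interval left out 0. Ckmt2 was at 1.24 in cardiomyocytes, while its intervals elsewhere reached 0, at 0.42 (-0.21 to 0.97) and 0.55 (-0.10 to 1.20). Atrial RNA was also more abundant outside cardiomyocytes in CLP_LLTS: Myl7 was at 3.75 (3.16 to 4.37) and 2.75 (2.02 to 3.64), Myl4 at 3.06 and 1.80, and Nppa at 3.64 (3.14 to 4.16) and 1.94 (1.46 to 2.47), the last against -1.18 in gated cardiomyocytes. The part of atrial RNA in the Ankrd1 ratio outside cardiomyocytes was not tested. In the free RNA reading Nppb had 16, 1 and 13 counts in endothelial and 9, 0 and 6 in macrophage barcodes of sham, CLP and CLP_LLTS, lowest in CLP as in cardiomyocytes.

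Some of the 35 genes are also made by other heart cells. RNA from a single source should keep its genes in 1 ratio, and the ratio in gated cardiomyocytes was taken as that of free RNA. This held only roughly. Relative to the reference genes in CLP, Myh6 came to 2.89% in cardiomyocytes and 7.51% in endothelial barcodes, and Ckm to 3.39% and 9.46%. A gene was therefore set apart only in a class where it had at least 4 times the counts that ratio gives in at least 3 of 4 libraries, with the lower bound of that ratio above 1. This held for 14 genes in smooth muscle, 9 in fibroblasts, 5 in pericytes, 3 in macrophages, 2 in glia, 2 in T or NK cells, and 1 each in endothelial cells, neutrophils and B cells. Smooth muscle, which contracts with its own actin and myosin, held Tpm1 at 4494, 3458, 2969 and 3692 CPM, 17.3, 18.6, 13.6 and 16.0 times the free RNA level. It also held Des at 528, 477, 567 and 246 CPM and Tnnt2 at 643, 574, 635 and 552 CPM. Tcap there was at 540, 395, 188 and 126 CPM, with a log2 ratio of CLP over sham of -1.07 (-1.36 to -0.80). Tnnt2 is itself a reference gene, which lowers its measured excess.

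Cryab, the chaperone alpha-B crystallin, was highest outside muscle in glia, the Schwann cells of cardiac nerves, at 1747, 2603, 2485 and 1287 CPM from 182, 158, 208 and 23 counts. Fibroblasts held it at 424, 331, 216 and 127 CPM, with ratios of -0.62 (-0.68 to -0.55) for CLP over sham and -0.77 (-0.86 to -0.68) for CLP_LLTS over CLP. In cardiomyocytes the latter ratio was positive, at 0.52. Fibroblast Tpm1 took the same course at 335, 234, 157 and 96.1 CPM. Free RNA, at 243, 155, 147 and 56.5 CPM of reference genes in fibroblasts, had the same order over the libraries. Cryab in fibroblasts was 35.1 to 46.1 times and Tpm1 3.41 to 5.54 times the level free RNA gives. With the macrophage profile as reference, fibroblast Cryab still met the rule and fibroblast Tpm1 did not.

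Casq2 was found in pericytes at 366, 414, 620 and 87.1 CPM from 64, 58, 69 and 5 counts, above its cardiomyocyte level of 174, 132, 47.8 and 18.7 CPM in every library. It lay in smooth muscle at 53.1, 59.2, 76.7 and 66.0 CPM. The lower Casq2 of CLP cardiomyocytes was not seen in pericytes, where CLP over sham was 0.58 (0.06 to 1.11). In endothelial barcodes Casq2 stood at 12.4, 12.1, 18.6 and 3.39 CPM, highest in CLP and lowest in CLP_LLTS as in pericytes.

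The exchanger Slc8a1 was above the free RNA level in macrophages and fibroblasts. Macrophages held 28.9, 30.3, 11.0 and 15.6 CPM from 489, 640, 151 and 377 counts, 27.4 to 202 times the free RNA level. That level rests on only 50, 11, 7 and 3 Slc8a1 counts in cardiomyocytes, so the size of the excess is imprecise. The ratio of CLP over sham was -1.46 (-1.73 to -1.20), and that of CLP_LLTS over CLP 0.50 (0.23 to 0.78). Fibroblasts held 34.0, 33.7, 14.3 and 6.26 CPM, with ratios of -1.24 (-1.47 to -1.02) and -1.18 (-1.61 to -0.78). After CLP with stimulation Slc8a1 was thus higher than after CLP in macrophages and lower in fibroblasts; this difference between the classes was not tested. Cacna1c was at 7.04 to 9.15 CPM in fibroblasts.

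Atp2a2 met the rule for a gene above free RNA in 8 of the 9 classes, SERCA2 being the common calcium pump of the endoplasmic reticulum. Endothelial cells missed that rule, which does not mean that their Atp2a2 was free RNA alone. Smooth muscle held 582, 691, 632 and 1002 CPM and fibroblasts 179, 176, 227 and 260 CPM. In macrophages it was at 59.5, 55.6, 109 and 96.7 CPM, a ratio of CLP over sham of 0.96 (0.85 to 1.08), where cardiomyocytes had -0.66. Fibroblasts gave 0.37 (0.30 to 0.44). Counts per gene do not separate the muscle isoform from the common one.

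**Figure D5:**
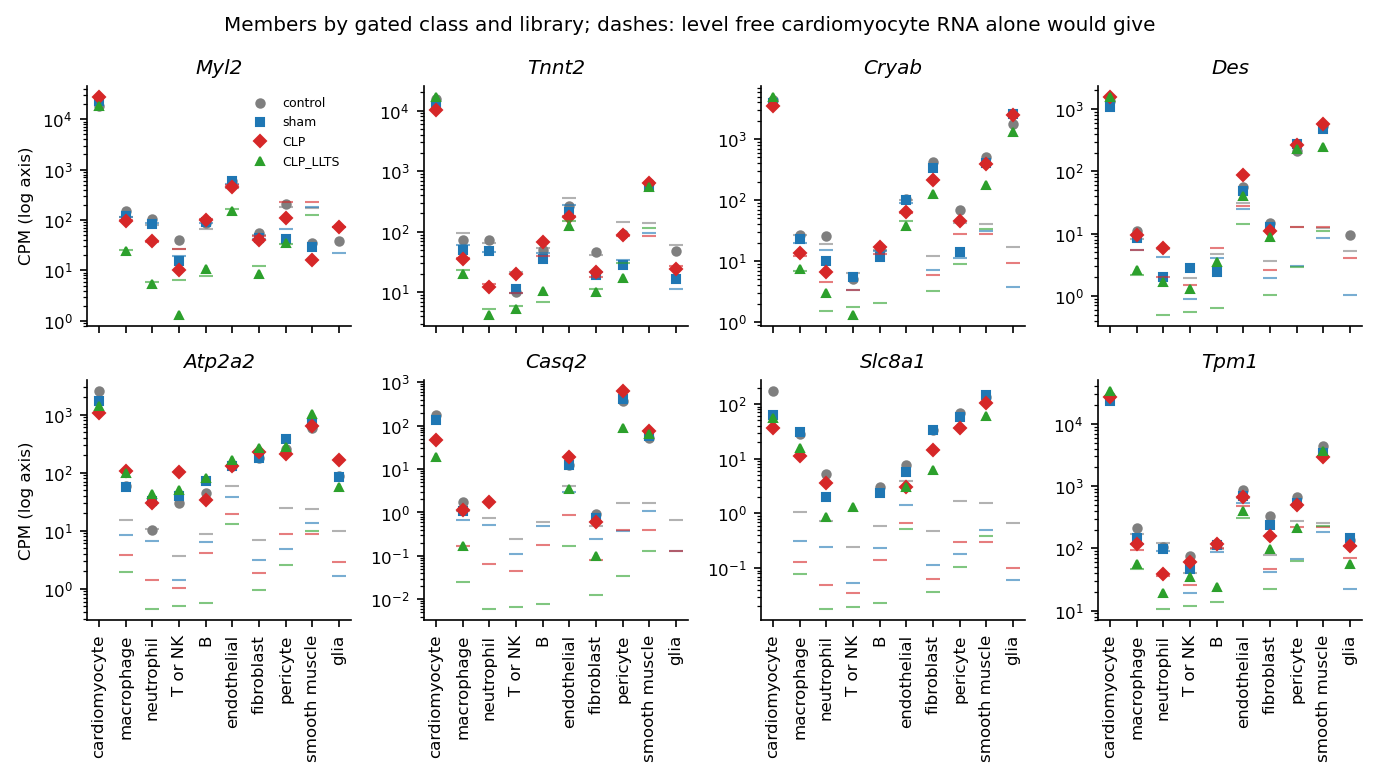
CPM (log axes) of 8 genes in gated cardiomyocytes and in 9 other classes, 1 point per library; the short dashes show the level that free cardiomyocyte RNA alone would give, and classes with 0 counts have no point. Myl2 lies on or near the dashes in most classes, while Cryab in glia and fibroblasts, Casq2 in pericytes and Slc8a1 in macrophages lie far above them. Myl2 is itself a reference gene that sets the dashes, so its closeness to them is partly built in.

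Sham over control shows how far 2 libraries without sepsis can lie apart. Of 33 measured genes, 6 were past 2-fold lower (4.65% of all genes) and 1, Nppb, was past 2-fold higher (3.67%). The lower ones were Nppa at -3.03, Myl7 at -2.65, Slc8a1 at -1.38, Myl4 at -1.35, Myom2 at -1.23 and Ryr2 at -1.08. Among ventricular barcodes the median of the list went from -0.27 to 0.10, and Nppa and Ryr2 turned to 0.69 and 0.76. Myl4 and Myl7 define that split, and 222 of the 233 ventricular Myl4 counts of sham came from the deep barcode, so their ventricular ratios are not read. Actc1 was at -0.48 (-0.61 to -0.36), Csrp3 at -0.20 (-0.39 to 0.00), Mybpc3 at 0.27 (-0.04 to 0.58) and Ldb3 at -0.36 (-0.91 to 0.15), each nearer 0 than in CLP over sham.

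Against sham, the CLP_LLTS library had 30 measured genes with a median of -0.10, 1 past 2-fold higher (Ankrd1, 8.94% of all genes) and 3 lower (Myl4, Myl7 and Casq2, 9.61%). Actc1 was at -0.63 (-0.89 to -0.38), Csrp3 at -0.87 (-1.32 to -0.46), Mybpc3 at -0.56 (-1.18 to -0.01) and Pln at -0.81 (-1.04 to -0.59), all lower than in sham. Tnnt2 at 0.50 (0.39 to 0.61), Tnnc1 at 0.63 (0.46 to 0.80), Tcap at 0.71 (0.49 to 0.92) and Ckmt2 at 0.88 (0.41 to 1.33) were higher than in sham.

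Other genes of the same structures give the setting. Of 26 further sarcomere genes, 17 were measured in CLP over sham, 12 lower and 5 higher, with a median of -0.50, where 1100 of all 1910 genes were lower. Tmod1, which caps actin filaments, was at -1.31 (-2.12 to -0.58) and Smyd1, a methyltransferase needed to build sarcomeres, at -1.22 (-2.58 to -0.07), while the filament nucleator Lmod2 was at 1.02 (0.60 to 1.47) and skeletal actin Acta1 at 0.80 (0.31 to 1.31). Acta1 was thus higher where Actc1 was lower. In CLP_LLTS over CLP, 10 of 15 were higher (median 0.59), where 768 of all 1317 genes were, among them Smyd1 at 2.09 (0.69 to 3.55) and Nrap at 2.07 (1.01 to 3.17), from 11 and 18 counts in CLP_LLTS, and Acta1 was at -1.62 (-2.86 to -0.71). Of 22 further calcium genes, 12 of 17 measured were lower in CLP than in sham (median -0.41), led by Srl at -1.70 (-2.81 to -0.77) and the atrial pump inhibitor Sln at -1.67 (-2.20 to -1.17). Triadin (Trdn), which ties Casq2 to the release channel, was at 0.48 (0.03 to 0.93) and then at -1.18 (-2.18 to -0.39) in CLP_LLTS over CLP.

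Genes of inflammation and protein breakdown were higher in the CLP cardiomyocyte barcodes. All 8 measured acute phase genes were higher than in sham (median 2.99). Of all 1910 genes measured in this comparison, 810 were higher. Like the other lists, those of acute phase and protein breakdown genes were chosen with earlier results of these data known. How many of their genes were higher is thus a description and no independent result. Saa3 had 1011 counts against 0, at least 312-fold higher, and Lcn2 170 against 0, at least 52.4-fold higher; the median is the same with these and Serpina3n set at their bounds. The metallothionein Mt1 was at 2.85 (2.64 to 3.07). The part of free RNA from other cells in these values was not tested. All 6 measured genes of muscle protein breakdown were higher (median 1.13), led by the ubiquitin ligase Fbxo32 (atrogin-1) at 2.55 (1.18 to 4.67), from 28 and 4 counts and with a range of 1.13 to 3.70 over settings, and the mitophagy receptor Bnip3 at 1.32 (0.67 to 2.04). Of 12 measured fuel genes 5 were higher (median -0.01), with Pdk4, which shuts pyruvate out of oxidation, at 2.34 (1.49 to 3.41). In CLP_LLTS over CLP all 7 measured fuel genes were higher (median 0.33), where 768 of all 1317 genes were. None was past 2-fold. Acadl at 0.94 (0.54 to 1.34) and Acadm at 0.89 (0.42 to 1.34) were the only 2 with an interval above 0. The acute phase median was -0.11. Of 8 atrial genes outside the list, Sln and Stard10 were measured in CLP over sham, Stard10 at -1.02. The breakdown list had a median of 0.18 in CLP_LLTS over CLP. No gene of the excitability and adrenergic list reached 20 counts in either comparison.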

How the data were processed

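Chromium 3' v3 chemistry was used, per the labels' protocols. What the authors deposited are unnormalized UMI counts, made by Cell Ranger 5.0.0 per the file headers, with STAR and mm10, per the submitters' processing notes. Annotation and barcode filter: not given in the sources used here. The libraries held 54611436 to 59465046 UMIs in 8741 to 15964 barcodes. Barcodes with at least 500 UMIs and 200 genes were kept. Cardiomyocytes needed at least 3 of the 16 gate genes, 5 gate UMIs and 0.3% of nuclear (not mitochondrial) UMIs, with no mitochondrial limit, since 9 to 80 of the gated barcodes per library were over 20%. Other classes needed at most 20% mitochondrial UMIs, 3 markers, 5 marker UMIs and 70% of the UMIs over all marker lists. No doublet caller was run; 67, 40, 24 and 4 gated barcodes with markers of another class were set aside. Pairs of libraries shared 19 to 60 barcode sequences.

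Counts were summed per library and divided by nuclear UMIs to CPM, and given exact Poisson intervals. For log2 ratios 0.5 was added to each count and the interval was the exact conditional binomial one, and shares exact Clopper-Pearson intervals, all at 95%. A gene was measured with at least 20 counts over the 2 libraries, and 2-fold was the size at which it was counted. Expected free RNA was the class's counts of the 8 reference genes times each gene's cardiomyocyte ratio to them. The computations were tested on simulated data and run with Python 3.11.15, numpy 2.4.6, scipy 1.17.1, pandas 2.3.3 and matplotlib 3.10.9. The genes and the lists were chosen with earlier results of these data known. Values in every library were due for the 5 most abundant genes, for Myh6, Myh7, Nppa, Nppb, Atp2a2, Pln, Ankrd1, Myl2 and Myl7, and for the 4 highest and 4 lowest ratios in CLP over sham and CLP_LLTS over CLP; other genes given in full were chosen after their values were seen. For the 7 other lists the rule took the 2 highest and 2 lowest ratios, from which examples are given. Alternatives were 12 planned and 2 added after seeing the data (without barcodes over 10000 UMIs, and without Gm42418).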

Additional observations from a re-analysis of the deposited data

How the results depend on the processing

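No paired analysis was possible because each group has 1 library. Over 14 other settings the median of the 35 genes in CLP over sham ranged from -0.35 to -0.06, and in CLP_LLTS over CLP from 0.27 to 0.57. Direction was the same in every setting for 19 of 30, 21 of 29, 22 of 30 and 17 of 33 measured genes in CLP over sham, CLP_LLTS over CLP, CLP_LLTS over sham and sham over control. Genes past 2-fold lower in CLP numbered 11 with the gate at 0.15%, 10 with at most 20% mitochondrial UMIs and 10 with no minimum count, against 7. In CLP_LLTS over CLP those higher ranged from 2 (ventricular cells only) to 7 (no minimum count), against 4. For CLP_LLTS over sham the median of -0.10 became -0.21 with the gate at 0.15%, -0.19 at 0.6%, 0.28 with mixed barcodes kept, -0.15 with size factors, -0.10 with 5 CPM added, -0.16 in ventricular cells and -0.11 without Gm42418. For sham over control the median of -0.27 became -0.16 with the gate at 0.15%, -0.12 with mixed barcodes kept, 0.10 in ventricular cells and -0.34 without barcodes over 10000 UMIs. Directions reversed for Myl4 (-1.12) and Myl7 (-2.72) in CLP_LLTS over CLP with the gate at 0.6%, for Cebpd (-0.32) in CLP_LLTS over sham with mixed barcodes kept, for Ryr2 in sham over control with the gate at 0.15% (0.016), and in ventricular cells for Myl4 (6.08), Myl7 (1.65), Ryr2 (0.76) and Nppa (0.69) in sham over control. The cardiomyocyte share was 0.854%, 1.15% and 1.68% in control, sham and CLP with at most 20% mitochondrial UMIs, and 1.78% and 2.09% in control and sham with mixed barcodes kept. Reference gene levels in macrophages were 527, 412 and 288 CPM of all UMIs in control, sham and CLP, and 523 and 413 CPM with the gate at 0.15% in control and sham. With the macrophage profile as reference, 20 gene and class pairs outside macrophages were off the free RNA ratio, against 35. Among those lost were Casq2 in endothelial cells and Tpm1, Des, Hspb7, Myom1, Myom2 and Slc8a1 in fibroblasts. Macrophages themselves met the rule for Myom1 and Slc8a1 by the cardiomyocyte ratio. CPM over all UMIs moved the median of all genes in CLP over sham from -0.11 to 0.02 and that of the 35 genes from -0.20 to -0.07. The cause of these shifts was not tested. The 41 barcodes of CLP_LLTS limit genes under about 56.0 CPM, the level of 3 counts.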
